A study of Mus musculus with 8 samples.

Results

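The enzymes described here build triacylglycerol, the main lipid of milk, from glycerol 3-phosphate: the glycerol-3-phosphate acyltransferases Gpam and Gpat4, the lysophosphatidate acyltransferases Agpat1, Agpat2 and Agpat3, the phosphatidate phosphatases Lpin1, Lpin2 and Lpin3, and the diacylglycerol acyltransferases Dgat1 and Dgat2. They were chosen by name, as the probes whose accession on the array maps to these symbols. All 10 enzymes were found among the 18749 genes with a probe, with 21 of the 41174 probes. RNA came from No. 4 mammary glands of C57/Bl6 females at lactation day 1, from 4 wild-type (WT) dams and 4 Th-POK-deficient (KO) dams, with each sample labelled with Cy3 and read on a one-colour Agilent mouse array of its own. The KO mice lack the transcription factor Th-POK in the whole animal, so the deletion is not limited to the mammary epithelium. The labels and methods state age-matched females but give no age for these dams. A whole gland holds secretory epithelium, fat, stroma and blood cells together.

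Triacylglycerol is assembled in 4 steps. An acyl chain is first joined to glycerol 3-phosphate, a further one makes phosphatidate, the phosphate is removed to give diacylglycerol, and the last chain makes triacylglycerol, which the secretory epithelium of the lactating gland packs into lipid droplets and releases as milk fat globules. Fat cells run the same steps to store lipid. Each step is served by several enzymes that differ in tissue and in place within the cell, and the intermediates phosphatidate and diacylglycerol also feed the synthesis of phospholipids.

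The values below are log2 signals, quantile-normalized between the arrays, so that a difference of 1 is a 2-fold difference. The signal of one probe says nothing about its level relative to another probe. A gene with several probes is represented by its brightest, and "called" means an adjusted p under 0.05 from limma with Benjamini-Hochberg adjustment over all 14137 genes tested. Zbtb7b, which encodes Th-POK and is the deleted gene, had log2 signals of 9.90 to 10.42 on the WT arrays. It was not well above background on any KO array and entered through its WT signal alone, so no p is given. With each KO array set at the dimmest signal well above background, it was 81.5-fold lower. The share of probes well above background ran from 66.8% to 75.3% over the arrays. Each genotype occupied a slide of its own, so an effect of the slide and one of the genotype cannot be told apart. The p-values measure the spread between 4 arrays a genotype, and that number limits their precision.

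All 10 enzymes were well above background on all 8 arrays, with every one of their 21 probes, and all 10 were tested. Lpin1 fell and Dgat2 rose in the KO mammary glands, and the other 8 enzymes were not called. The share of 2 in 10 stands beside 16.5% of all genes tested that were called in either direction, 8.96% lower and 7.53% higher in KO, so it lies near the background. At an unadjusted p under 0.05 the count was also 2 of 10, against 36.3% of all genes. The mean was lower in KO for 6 enzymes and higher for 4, against 52.4% of all genes lower, and the median difference (KO minus WT, log2) was -0.09 for the enzymes and -0.02 for all genes tested. None of the 10 separated the genotypes without overlap, whereas 24.1% of all genes did, 12.9% with KO below WT. The enzymes therefore did not move together in one direction, and the description below follows the order of the steps. In whole glands, fewer cells of a type and less RNA per cell cannot be told apart.

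**Figure D1:**
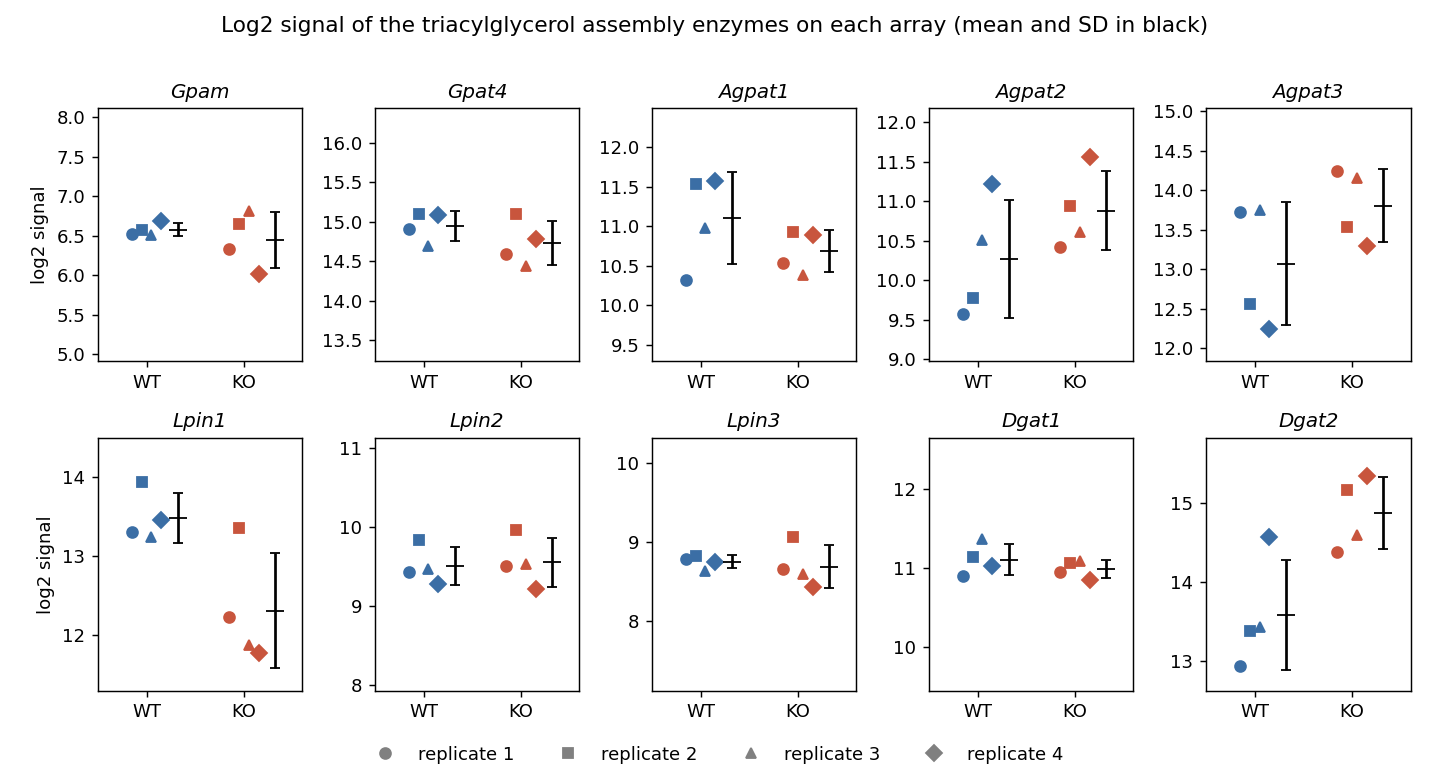
Log2 signal (y axis, of equal length in log2 units in every panel) of the 10 enzymes on the 4 WT (blue) and 4 KO (red) arrays; marker shapes give the replicate number, and the black bar is the mean with 1 SD on either side. Lpin1 lies lower in KO except for KO replicate 2, Dgat2 lies higher in KO with WT replicate 4 among the KO arrays, and Agpat3 splits replicates 1 and 3 from 2 and 4 in both genotypes.

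The glycerol-3-phosphate acyltransferases start the pathway and showed no called difference. Gpam, the mitochondrial enzyme of the first step, had log2 signals of 6.52, 6.58, 6.51 and 6.69 in WT glands and 6.33, 6.64, 6.82 and 6.01 in KO glands. The WT arrays lay within 0.18 of each other and the KO arrays spread over 0.81 around them. The difference was -0.12 ± 0.17 (SE, n = 4 per genotype; adjusted p = 0.636, limma), with a 95% confidence interval of -0.52 to 0.27. Gpam rested on a single probe.

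Gpat4, formerly called Agpat6, is the enzyme of the endoplasmic reticulum whose loss in mice is known to deplete milk of triacylglycerol. Its log2 signals were 14.90, 15.10, 14.69 and 15.08 in WT and 14.60, 15.10, 14.44 and 14.79 in KO. For 3 of the 4 numbers the KO array lay below the WT array of the same number, and KO replicate 2 was level with WT replicate 2. The difference was -0.21 ± 0.16 (SE; adjusted p = 0.378, limma). The other Gpat4 probes gave -0.39 and -0.41, so the 3 probes shared a direction and none was called in the fit over all probes.

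The lysophosphatidate acyltransferases, which make phosphatidate, had the widest spread among arrays of one genotype together with Lpin1 and Dgat2. Their SDs within genotypes, pooled over both, were 0.45 for Agpat1, 0.64 for Agpat2 and 0.64 for Agpat3, against a median of 0.227 over all genes tested. Agpat1, a broadly expressed enzyme, had log2 signals of 10.33, 11.53, 10.98 and 11.57 in WT and 10.54, 10.93, 10.38 and 10.89 in KO. Arrays of the same number are called pairs or partners below, though the labels state no matching of them. How many of all genes keep the same direction over such pairs was not computed, so counts of pairs only describe the arrays and are not read as support. Agpat1 was lower in KO in 3 of 4 such pairs and higher in the first, with a difference of -0.42 ± 0.28 (SE; adjusted p = 0.313, limma). Without WT replicate 1, the lowest WT array, the difference was -0.68 (adjusted p = 0.0518, limma), and without WT replicate 4 it was -0.26.

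Agpat2, the form that fat tissue depends on, had log2 signals of 9.57, 9.77, 10.51 and 11.22 in WT and 10.42, 10.94, 10.61 and 11.56 in KO. It was higher in KO in all 4 pairs, by 0.10 to 1.17, yet WT replicate 4 lay above 3 of the KO arrays. The difference was 0.61 ± 0.39 (SE; adjusted p = 0.284, limma). Both Agpat2 probes followed the same order of arrays (r = 0.998 over 8 arrays) and the other gave 0.67.

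Agpat3, a broadly expressed acyltransferase of the endoplasmic reticulum and Golgi, had log2 signals of 13.72, 12.56, 13.75 and 12.25 in WT and 14.24, 13.54, 14.15 and 13.29 in KO. Replicates 1 and 3 were the high arrays and replicates 2 and 4 the low arrays in both genotypes. KO was higher in all 4 pairs, by 0.40 to 1.04. Without regard to the pairs the difference was 0.73 ± 0.39 (SE; adjusted p = 0.205, limma). In the fit that takes the replicate number as a block, it was 0.73 ± 0.15 and was called (adjusted p = 0.0288, limma). The labels do not state that equal numbers are matched. Correlations between same-numbered arrays (0.16 to 0.30) were not above those of every pair of different number, which reached 0.34. With that block 3 of 10 enzymes were called, Lpin1, Dgat2 and Agpat3, beside 19.5% of all genes. The probes of Agpat3 agreed less than those of the other acyltransferases of this step (r = 0.61 over 8 arrays), and the dimmer probe gave 0.46 ± 0.33, with signals of 10.30, 8.61, 10.03 and 9.60 in WT and 9.97, 9.99, 10.03 and 10.40 in KO. On the dimmer probe the KO array was lower than its WT partner for replicate 1 and level with it for replicate 3.

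Lpin1 was the enzyme that fell. It encodes lipin 1, a phosphatidate phosphatase needed for normal fat tissue that also acts in the nucleus as a partner of transcription factors. Its log2 signals were 13.31, 13.93, 13.24 and 13.46 in WT and 12.23, 13.35, 11.87 and 11.77 in KO. KO replicates 1, 3 and 4 lay more than 1 log2 unit below their WT partners, while KO replicate 2 was 0.58 below its partner and above WT replicates 1 and 3. The difference was -1.18 ± 0.34 (SE, n = 4 per genotype), that is 2.26-fold lower in KO with a 95% confidence interval of 1.32 to 3.87 (adjusted p = 0.0483, limma). All 3 Lpin1 probes were lower in KO, by 1.18, 1.03 and 1.04 on the log2 scale, and 1 of them was called in the fit over all 27654 probes, where 14.5% of probes were called (adjusted p = 0.0493, 0.0884 and 0.0751, limma). The call lay close to the threshold. It was lost when any array other than KO replicate 2 was left out (adjusted p from 0.0569 to 0.126, limma), and without KO replicate 2 the difference was -1.53 (adjusted p = 0.0161, limma).

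The differences of the other lipins were small. Lpin2, known mainly from liver and macrophages, had log2 signals of 9.42, 9.83, 9.46 and 9.27 in WT and 9.50, 9.96, 9.53 and 9.21 in KO, with a difference of 0.05 ± 0.18 (SE; adjusted p = 0.853, limma). Lpin3, known mainly from gut, had 8.78, 8.83, 8.63 and 8.75 in WT and 8.66, 9.06, 8.59 and 8.43 in KO, with a difference of -0.06 ± 0.14 (SE; adjusted p = 0.788, limma). In both genes the highest array of each genotype was replicate 2, as it was for Lpin1.

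The diacylglycerol acyltransferases close the pathway. Dgat1, an enzyme of the endoplasmic reticulum without which mice are known to fail to lactate, had log2 signals of 10.90, 11.14, 11.36 and 11.02 in WT and 10.95, 11.06, 11.09 and 10.84 in KO. Its arrays varied least of the 10 enzymes, with a pooled SD of 0.16, and the genotypes overlapped. The difference was -0.12 ± 0.12 (SE; adjusted p = 0.519, limma), and the other Dgat1 probe gave -0.21.

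Dgat2 rose. This enzyme carries out the same step as Dgat1 and is unrelated to it in sequence. Its log2 signals were 12.93, 13.38, 13.43 and 14.57 in WT and 14.38, 15.16, 14.60 and 15.34 in KO. Every KO array was above its WT partner, by 0.77 to 1.79, and the genotypes overlapped only because WT replicate 4 lay above KO replicate 1. The difference was 1.29 ± 0.36 (SE, n = 4 per genotype), that is 2.45-fold higher in KO (adjusted p = 0.0429, limma), with a 95% confidence interval of 0.47 to 2.11 on the log2 scale. The 3 Dgat2 probes gave 1.29, 1.40 and 1.24, and 2 of them were called over all probes (adjusted p = 0.0437, 0.0345 and 0.0537, limma). Leaving out WT replicate 4 gave 1.62 (adjusted p = 0.0187, limma), and leaving out any other single array took the call away (adjusted p from 0.0626 to 0.111, limma). Scaling the arrays to their 75th percentile in place of quantile normalization gave 1.15 for Dgat2 (adjusted p = 0.0620, limma).

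**Figure D2:**
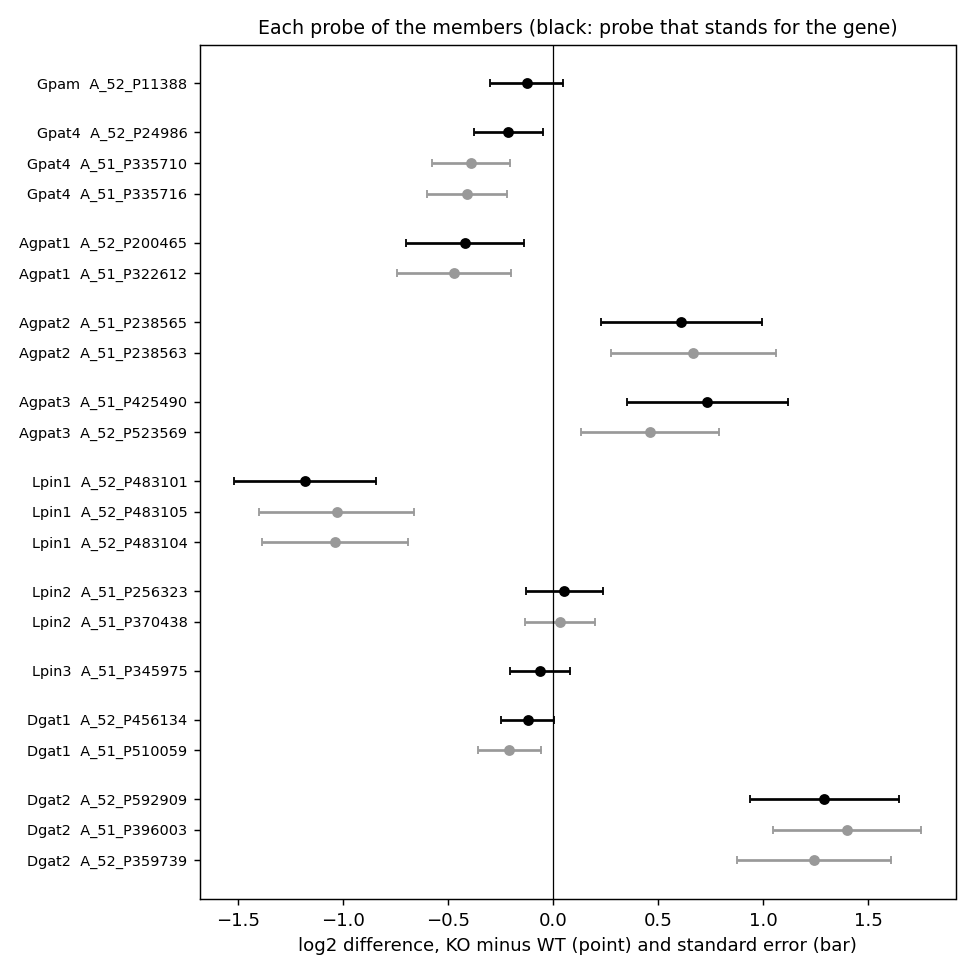
Difference between genotypes (KO minus WT, log2, x axis) with its standard error for each of the 21 probes of the 10 enzymes; the probe that represents its gene is black and the others are grey. Within each gene all probes lie on the same side of 0, from -1.18 to -1.03 for Lpin1 and from 1.24 to 1.40 for Dgat2.

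A call in one enzyme and none in its relative does not show that they differ, so the ratio of the enzymes of a family was taken within each array, and WT and KO ratios were set against each other by permutation (exact, two-sided). The test covered 8 pairs. The 95% intervals printed beside it come from the pooled variance, not from the permutations, and are not adjusted over the pairs. The exact p cannot fall under 0.0286, and an adjusted p under 0.05 would have needed 5 of the 8 pairs at that value. In 3 pairs p was 0.0286, which is the value that ratios without overlap between genotypes give. The lipin pairs among these share Lpin1, so the 3 are not separate results. Of single genes 24.1% did not overlap, and the share for ratios was not computed. The log2 ratio of Lpin1 to Lpin2 was 3.78 to 4.19 in WT and 2.34 to 3.39 in KO, a difference of -1.23 with a 95% interval of -1.83 to -0.63 (exact permutation p = 0.0286, adjusted p = 0.0762). The log2 ratio of Lpin1 to Lpin3 lay between 4.53 and 5.11 in WT and between 3.28 and 4.29 in KO, a difference of -1.12 with an interval of -1.77 to -0.47 and the same exact p. KO replicate 2, which overlapped the WT arrays in Lpin1 itself, did not overlap them in either ratio. Agpat1 to Agpat2 gave -1.03, with an interval of -1.92 to -0.14 and the same exact p.

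For the diacylglycerol acyltransferases, the log2 ratio of Dgat1 to Dgat2 differed by -1.41 (KO minus WT) with an interval of -2.50 to -0.33, but WT replicate 4 overlapped the KO arrays (exact permutation p = 0.0857, adjusted p = 0.171). The remaining pairs gave 0.09 for Gpam to Gpat4, -1.15 for Agpat1 to Agpat3, -0.12 for Agpat2 to Agpat3 and 0.11 for Lpin2 to Lpin3. Their intervals were -0.53 to 0.71, -2.99 to 0.68, -2.10 to 1.86 and -0.16 to 0.39. Thus the lipins other than Lpin1 differed from each other by little, whereas the intervals of the Agpat3 pairs were wide. After adjustment over the 8 pairs none passed the threshold.

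**Figure D3:**
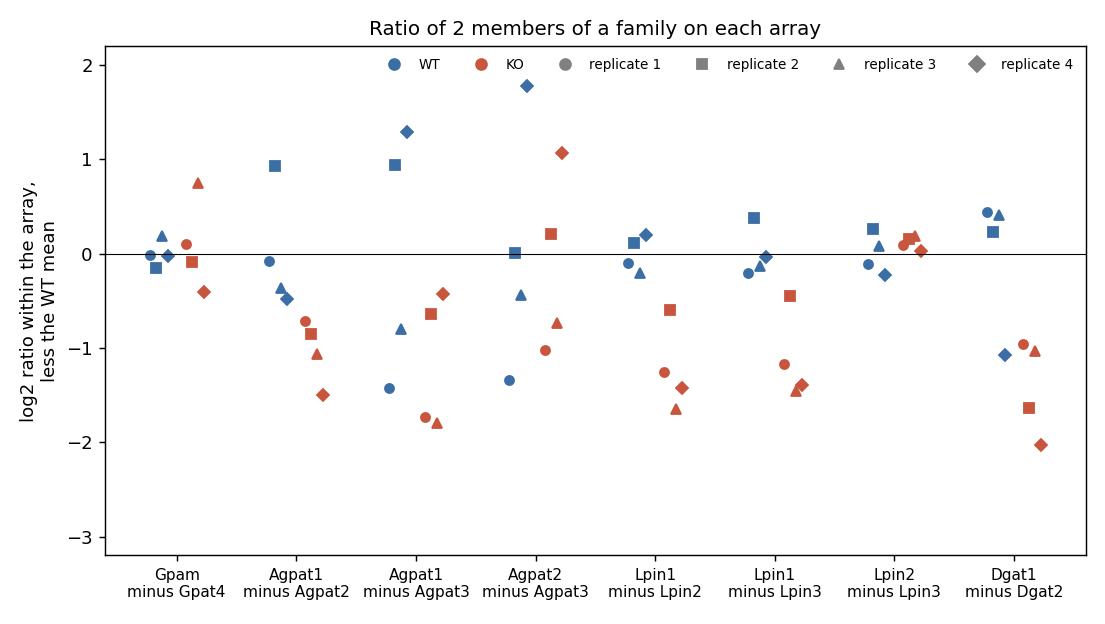
Log2 ratio of the enzymes of a family within each array (y axis, less the mean of the 4 WT arrays) for the 8 pairs compared; WT is blue, KO red, and marker shapes give the replicate number. WT and KO points are separate for Agpat1 minus Agpat2, Lpin1 minus Lpin2 and Lpin1 minus Lpin3, and overlap in the other 5 pairs.

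The enzymes also varied among arrays of one genotype, and some did so together. As a description over 8 arrays that share their scaling, the deviations of each enzyme from its genotype mean were correlated for the 45 pairs of enzymes. The correlations ranged from -0.88 to 0.95 with a median of 0.14, and 11 were above 0.5. The 3 lipins were among the most alike, with r = 0.95 for Lpin1 and Lpin3, 0.87 for Lpin1 and Lpin2 and 0.83 for Lpin2 and Lpin3. Agpat2 followed Dgat2 (r = 0.93), both lowest in replicate 1 and highest in replicate 4 of each genotype. Agpat3 ran against Agpat1 (r = -0.88) and against Dgat2 (r = -0.82).

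For the 3 enzymes with the smallest p, the genes whose deviations were most alike were sought by the same measure among 14127 other genes. They were Tmbim1, Rph3a and Slc18b1 for Dgat2 (r = 0.983, 0.981 and 0.979), S1pr1, Cd86 and Dusp1 for Lpin1 (r = 0.980, 0.971 and 0.967), and S100a6, Mfsd1 and Rce1 for Agpat3 (r = 0.998, 0.996 and 0.994). With 8 arrays and so many genes, values this high are not read as a link.

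The genes around the pathway were read in 4 lists of 24 genes in all. Of these 23 were tested, since Fitm1 was not well above background on any array. Cds2 rose and Fitm2 fell, so 2 of 23 were called beside 16.5% of all genes, and the median difference was -0.03 on the log2 scale. In the fit with the replicate block, whose pairing the labels do not state, 5 of 23 were called, where 19.5% of all genes were called. These were Mogat1, Gpd1 and Gpd2 beside Cds2 and Fitm2. Where Plpp2, Gpd1l, Cds2 and Fitm2 are described below as without overlap between the genotypes, 24.1% of all genes were likewise without overlap.

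A list of 9 other enzymes held Gpat2, Gpat3, Agpat4, Agpat5, Plpp1, Plpp2, Plpp3, Mogat1 and Mogat2. Mogat1 and Mogat2 reach diacylglycerol by a separate route and not by the 4 steps above. By limma 0 of the 9 were called, and 2 (Plpp2 and Mogat1) had an unadjusted p under 0.05, against 36.3% of all genes. The smallest p was that of Plpp2, a lipid phosphate phosphatase, with log2 signals of 9.07, 8.27, 9.05 and 8.44 in WT and 9.29, 9.22, 9.46 and 9.79 in KO. All KO arrays were above all WT arrays, with a difference of 0.73 ± 0.22 (SE; adjusted p = 0.0537, limma). It was called with normexp background correction (adjusted p = 0.0440) and without WT replicate 1 (adjusted p = 0.0355, limma). Mogat1, which makes diacylglycerol from monoacylglycerol, had a difference of -0.92 ± 0.28 (adjusted p = 0.0566, limma), and with the block its adjusted p was 0.0186 (limma).

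The enzymes that supply glycerol 3-phosphate, Gpd1, Gpd1l, Gpd2 and Gk, also held 0 of 4 called by limma. Gpd1 and Gpd1l, 2 of 4, had an unadjusted p under 0.05, against 36.3% of all genes. Gpd1l, which makes it from dihydroxyacetone phosphate, had log2 signals of 10.90, 10.87, 11.16 and 10.98 in WT and 10.69, 10.66, 10.82 and 10.59 in KO. The genotypes did not overlap, with a difference of -0.28 ± 0.10 (SE; adjusted p = 0.0921, limma). Gpd1, the main cytosolic enzyme of that reaction, differed by -0.54 ± 0.22 and the mitochondrial Gpd2, which consumes glycerol 3-phosphate, by 0.42 ± 0.23. Their adjusted p was 0.118 and 0.229, and 0.0290 and 0.0348 with the replicate block (limma).

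On the branches that draw phosphatidate and diacylglycerol into phospholipids, 1 of 5 genes was called. Cds2, which turns phosphatidate into CDP-diacylglycerol for phosphatidylinositol synthesis, had log2 signals of 12.48, 11.96, 12.14 and 12.26 in WT and 12.84, 12.94, 12.84 and 12.69 in KO. All KO arrays were higher, by 0.62 ± 0.13 on average (SE; adjusted p = 0.0212, limma). Taking the mean of the Cds2 probes in place of the brightest brought the difference to 0.35 (adjusted p = 0.127, limma), and leaving out WT replicate 2 or 3 or KO replicate 1, 2 or 3 gave an adjusted p of 0.0517 to 0.0626 (limma). Cds1, Chpt1, Cept1 and Selenoi were not called.

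Among the lipin phosphatase subunits and the proteins that package triacylglycerol, 1 of 5 tested genes was called. Fitm2, a protein of the endoplasmic reticulum that helps to move triacylglycerol into droplets, had log2 signals of 7.14, 7.58, 7.29 and 6.76 in WT and 6.38, 6.66, 6.59 and 6.17 in KO. All WT arrays were higher, with a difference of -0.74 ± 0.19 (SE; adjusted p = 0.0346, limma). Normexp background correction brought the difference to -0.38 and ended the call (adjusted p = 0.0625, limma). The call was also lost with no filter on dim probes (adjusted p = 0.0519, limma), with the methods' t-test (adjusted p = 0.0684), and without WT replicate 2 or 3 or any one of the KO arrays (adjusted p from 0.0575 to 0.0825, limma). Ctdnep1 and Cnep1r1, which together form the phosphatase that acts on lipins, differed by 0.08 ± 0.12 and 0.34 ± 0.11 (adjusted p = 0.673 and 0.0670, limma). The droplet coat protein Plin2 differed by 0.19 ± 0.16 (adjusted p = 0.446, limma).

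**Figure D4:**
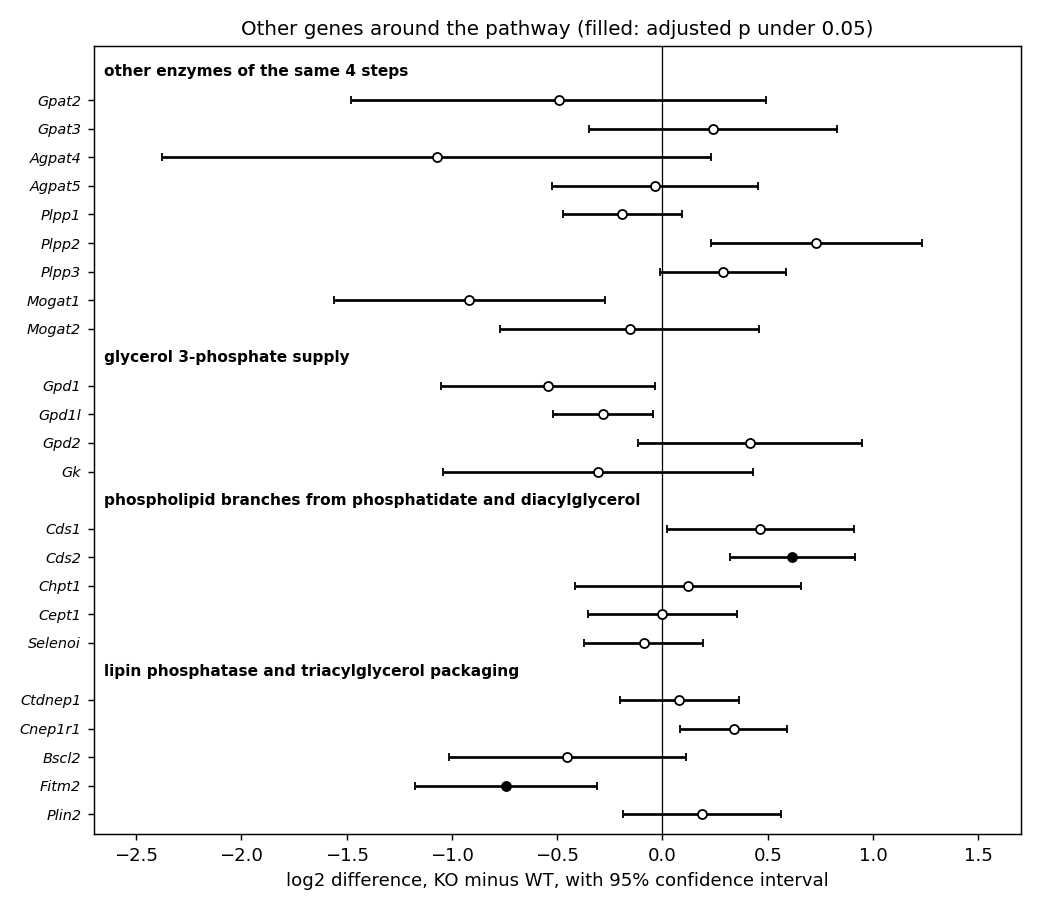
Difference between genotypes (KO minus WT, log2, x axis) with its 95% confidence interval for the 23 tested genes around the pathway, in their 4 lists; filled points have an adjusted p under 0.05. Cds2 at 0.62 and Fitm2 at -0.74 are the filled points.

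Because fat cells and secretory epithelium both express these enzymes, markers of the cell types a gland holds were measured beside them. Of 12 adipocyte markers 10 were tested, 9 had a higher mean in KO and 2 rose: Plin1 by 0.71 ± 0.19 (adjusted p = 0.0403) and Cfd by 0.68 ± 0.16 (adjusted p = 0.0268, limma). Of all genes tested 7.53% were called higher, and 52.4% had a lower mean in KO. Plin1 lost its call without any one array but WT replicate 4 (adjusted p from 0.0543 to 0.106, limma), and Cfd without WT replicate 2 or 3 or KO replicate 1, 2 or 3 (0.0633 to 0.0769). With 75th percentile scaling Cfd differed by 0.44 (adjusted p = 0.0537, limma). Pck1 and Adrb3 were not matched to a probe, and Lep was the marker with a lower mean. The mean log2 signal of the adipocyte markers was 13.38, 12.92, 13.32 and 13.57 on the WT arrays and 13.50, 13.71, 13.67 and 13.65 on the KO arrays, and the log2 of their summed signal was 18.4 to 18.9 and 18.9 to 19.4. Luminal epithelial markers had a mean of 13.55 to 13.97 in WT and 14.13 to 14.30 in KO. Of these 8 markers 4 were called higher (Krt18, Epcam, Cdh1 and Cldn3), beside that 7.53% of all genes. The mean was higher in KO for 6 of the 8 and lower for Elf5, a regulator of alveolar differentiation (-0.35 ± 0.14, adjusted p = 0.107, limma), and for Prlr, the prolactin receptor (-0.20 ± 0.19, adjusted p = 0.473, limma). The part of either cell type in the values of Dgat2, Agpat2 and Lpin1 was not tested.

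The remaining marker lists were read in the same way. The 6 milk protein genes had a mean log2 signal of 17.11 to 17.35 in WT and 17.05 to 17.39 in KO with none called by limma, and none was called among the 7 basal, 5 macrophage and 5 endothelial markers tested. At an unadjusted p under 0.05 these lists held 0, 1, 0 and 1 genes, against 36.3% of all genes. Several milk protein probes were among the brightest, where quantile normalization gives every array nearly the same values. Wap, for example, was at 18.475 on KO replicates 1, 3 and 4 and at 18.443 on WT replicates 2 and 3 and KO replicate 2. A difference could hardly show there, so the lack of a call is not read as equal milk protein RNA. Of 6 neutrophil markers tested 3 were called higher: Ngp, Camp and Ltf, the last also made by mammary epithelium. Ngp and Camp were well above background on the KO arrays alone, so they entered through the genotype in which they are high, and their WT signals (1.93 to 3.78 and 1.51 to 2.49) are background values that give no level. The log2 of the summed signal of the 6 was 16.04 to 16.62 in WT and 17.37 to 18.05 in KO. Most of that sum was Ltf, at 16.00 to 16.56 in WT and 17.30 to 17.94 in KO, so it is not a measure of neutrophils. Elane was not well above background on any array. T cell markers had 2 of 6 called lower, B cell markers 1 of 4 higher and fibroblast markers 1 of 6 higher. Of all genes tested 8.96% were called lower and 7.53% higher. With lists of 4 to 6 genes such counts are not read as a change in those cells. The part of these cells in the enzyme values was not tested.

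The calls of Lpin1 and Dgat2 lay near the threshold, and both had further settings without a call. With no filter on dim probes the adjusted p was 0.0731 for Lpin1 and 0.0666 for Dgat2 (limma), with the adjusted p of the methods' t-test it was 0.102 and 0.0950, and with the mean of its probes Lpin1 had 0.0656 (limma). The directions held in every one: the difference of Lpin1 was between -1.53 and -1.0 and that of Dgat2 between 1.08 and 1.62 on the log2 scale over 16 other ways of processing, testing or leaving out an array.

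**Figure D5:**
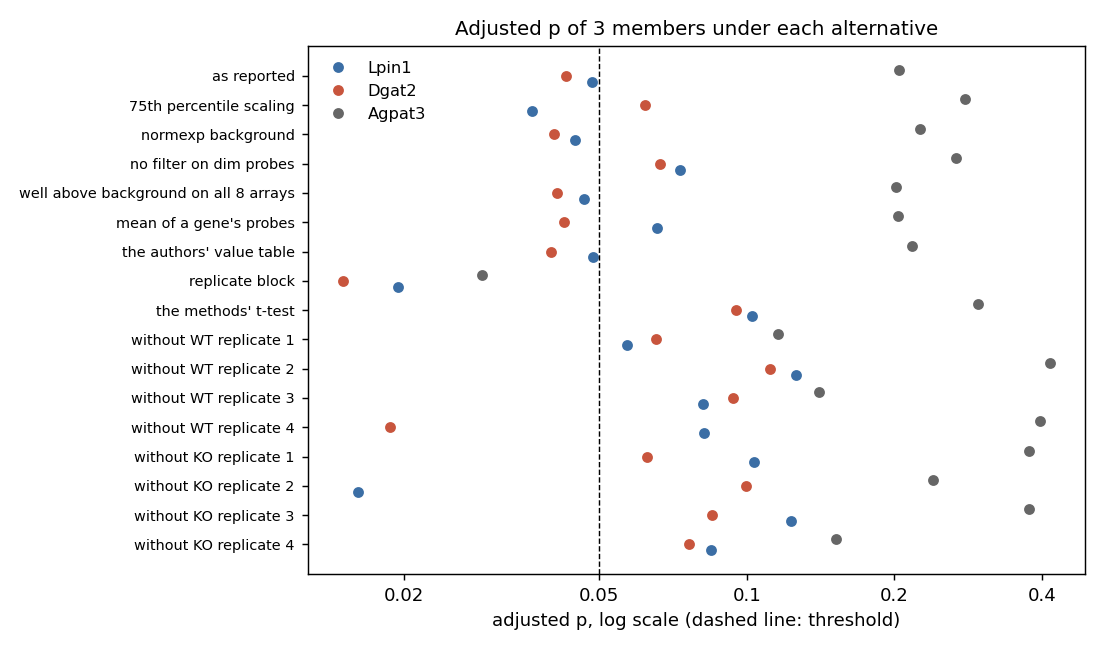
Adjusted p (x axis, log scale) of Lpin1, Dgat2 and Agpat3 as reported and under 16 alternatives, 1 row each; the dashed line marks 0.05. Lpin1 and Dgat2 lie on both sides of the line, from 0.0161 to 0.126 and from 0.0150 to 0.111, and Agpat3 crosses it in 1 alternative, the replicate block.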

How the data were processed

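The authors deposited the scanner output of 8 one-colour Agilent arrays (Feature Extraction 10.7 per the labels), in which the intensity of each spot had been background-subtracted and detrended but not normalized between arrays. A table of log2 values, quantile-normalized by the authors in GeneSpring, was also deposited; its columns had a median of 6.32, correlated with the same array's log2 intensity at r of at least 0.9985, and served as an alternative. After control spots had been set aside, the processed intensity of 43379 spots was log2-transformed and quantile-normalized (limma 3.58.1, R 4.3.3). Outlier spots, 64 to 100 per array, were left out and spots of a probe averaged; 0 spots were saturated. Through accessions, 27479 probes matched 18749 symbols of a RefSeq table (GRCm38.p6). The array design names mouse build mm9, so no coordinates are given. A probe entered if one genotype or both had it well above background on all 4 arrays, and 67 with a value missing from a marked spot were left out. The brightest probe represented a gene.

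The 14137 genes were compared by lmFit and eBayes with genotype as the term; the procedure was tested on simulated data. For Zbtb7b the fold was computed with each KO array at the dimmest signal that still counted as well above background. It depends on that floor and is not a strict limit. With normexp background the log2 difference was -4.23. Ratios of enzymes within an array were compared over the 70 relabelings of the arrays, adjusted over 8 pairs, with 95% intervals from the pooled variance. Alternatives were 75th percentile scaling, normexp background (offset 50, on median signals because mean signals were not used here), no filter or a stricter filter on dim probes, the mean of a gene's probes, the authors' table, the replicate block, the methods' t-test and leaving out each array.

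Replicates are dams, which the methods call independent sets of biological replicates. Replicate numbers occur in both genotypes, but the labels do not state that equal numbers pair the dams. The replicate block was fitted as an alternative only. Deviations from the genotype means correlated between same-numbered arrays at r = 0.22, 0.16, 0.30 and 0.28. Arrays of different number gave r from -0.32 to 0.34, and WT replicate 1 with KO replicate 3 (0.34), WT 3 with KO 1 (0.26) and WT 2 with KO 4 (0.24) were as high, so the check does not single out the same numbers. The enzymes and gene lists were chosen with earlier results of these data known. Named genes are Zbtb7b, all 10 enzymes, the called genes of each pathway list or else the one with the smallest p, markers needed for a list's value, and the 3 genes most like each of the 3 enzymes with the smallest p. Mogat1, Gpd1, Gpd2, Ctdnep1, Cnep1r1 and Plin2 fall outside that rule, and their values were chosen for print after they had been seen.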

Additional observations from a re-analysis of the deposited data

How the results depend on the processing

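The number of enzymes called, 2 as reported, was 1 with 75th percentile scaling (Lpin1), 1 with the mean of a gene's probes (Dgat2), 0 with no filter on dim probes, 0 with the methods' t-test after adjustment and 2 without, 3 with the replicate block, and 0 to 1 when an array was left out. Lpin1 and Dgat2 each kept their direction in all 16 alternatives and lost their call in 10. The median difference of the enzymes stayed between -0.17 and 0.02. Genes called, 2331 as reported, were 1389 with the methods' t-test after adjustment, 4765 unadjusted, and 515 (without KO replicate 3) to 3070 (without WT replicate 1) when an array was left out; without WT replicate 2 or 3 or KO replicate 1 or 2 they were 767, 983, 756 and 946. Pathway list genes called, 2 as reported, were 1 with no filter, 5 with the replicate block, 1 with the methods' t-test, 6 unadjusted, and 0 to 5 when an array was left out. With normexp background the count was 2, but of Plpp2 and Cds2, both higher. With the mean of a gene's probes it was also 2, both lower, without Cds2. Cds2 lost its call in 6 alternatives, Fitm2 in 9, Plin1 in 9 and Cfd in 7. The block changed the call of no other enzyme than Agpat3. Signs turned when an array was left out for Gpam (range -0.25 to 0.023, above 0 without KO replicate 4), for Lpin3 (range -0.19 to 0.025, above 0 without KO replicate 4) and for Lpin2 (range -0.084 to 0.17, below 0 without WT replicate 4 or KO replicate 2). Without turning sign, leaving out an array gave -0.33 to -0.12 for Gpat4, -0.68 to -0.26 for Agpat1, 0.38 to 0.93 for Agpat2, 0.46 to 0.96 for Agpat3 and -0.19 to -0.033 for Dgat1, and 75th percentile scaling gave -0.38 for Gpat4. The ratio of Agpat2 to Agpat3 was 0.042 with the mean of probes and -0.57 to 0.47 when an array was left out, and that of Gpam to Gpat4 was -0.13 to 0.25. With the replicate block, ratios were tested by flipping signs within the 4 pairs, which cannot give an exact p under 0.125, so no pair could pass. The causes of these changes were not tested. Signal over background limited none of the enzymes, whose probes were all well above it, and no single array stood apart among the 4 of its genotype in the 28 sets of values examined.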
